A study of Mus musculus with 16 samples.

Results

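The hypoxia response and glycolysis genes are 43 of the 53679 gene symbols in the expression table: 4 glucose and lactate transporters, 17 glycolytic enzymes, 2 enzymes that set how glucose is used, 3 subunits of hypoxia-inducible factor (HIF), 4 oxygen sensors and HIF inhibitors, and 13 other genes that are known to be induced by hypoxia. They were chosen by symbol, and all 43 were found. RNA was sequenced from 16 wild-type mouse primary neuronal cultures (PNCs), prepared from the cortex at embryonic day 15, 4 cultures in each of 4 groups. CONTROL-VEH and OGD-VEH received vehicle on day in vitro (DIV) 8 (the labels also call them untreated), and CONTROL-TIA and OGD-TIA received the antidepressant tianeptine (TIA) at 10 μM. After 24 h of pretreatment, on DIV 9, the OGD groups underwent 3 h of oxygen-glucose deprivation (OGD), an in vitro model of brain ischemia, and the CONTROL groups a sham procedure. All groups were harvested 6 h later, which for the OGD groups was 6 h of reoxygenation, so the values describe recovery and not the time without oxygen. Expression is given in FPKM, reads scaled to isoform length and library size, added up over the isoforms of a symbol, and lists of 4 values follow the culture numbers 1 to 4 (CONTROL-VEH), 5 to 8 (CONTROL-TIA), 9 to 12 (OGD-VEH) and 13 to 16 (OGD-TIA).

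HIF is a transcription factor made of an oxygen-regulated subunit (HIF-1α or HIF-2α, encoded by *Hif1a* and *Epas1*) and ARNT. With oxygen, prolyl hydroxylases (*Egln1*, *Egln3*) mark the regulated subunit for the VHL ubiquitin ligase, and the hydroxylase of *Hif1an* blocks its activation domain, so that HIF protein can change while its mRNA does not. Under hypoxia HIF binds hypoxia response elements and raises glucose transporters, glycolytic enzymes, *Pdk1*, which closes pyruvate entry into mitochondria, and genes such as *Vegfa*, *Adm* and *Bnip3*. In the cortex, neurons are known for the glucose transporter GLUT3, the lactate carrier MCT2, neuron-specific enolase (*Eno2*) and the M1 form of pyruvate kinase, and astrocytes for *Aldoc*, lactate release and the M2 form.

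The core of the hypoxia response element is ACGTG or GCGTG. RefSeq promoter windows of build GRCm38.p6 were found for 39 of the 43 genes, and the 250 bases before each start were searched on both strands, where a match on the minus strand reads CACGT or CACGC. At least 1 match was present before a start of 34 genes, or 87.2% of the 39, against 41.5% of all 27025 symbols with a window. Of all 32851 windows, 16.6% held ACGTG, 28.2% GCGTG and 38.6% either, whereas 45.6%, 50.9% and 75.4% of the 57 windows of these genes did. Both letter groups contain CG, and the windows of these genes also held more CG (median 14 against 6), so the shares are given as a description; ACGTG overlaps the E-box CACGTG. *Gpi1*, *Tpi1*, *Eno2*, *Vhl* and *Hif1an* had no match in these windows. The 150 bases before a start are shown for 4 genes that changed with OGD. *Slc2a1* and *Pfkfb3* rose, and *Ldha* and *Bnip3* fell and held 5 matches each (1.01% of all windows held 5 or more). CACGTG was counted as a match on each strand, so matches can outnumber separate sites. For each gene the window with the most matches is shown, and the other windows of *Ldha* and *Pfkfb3* held 1 match each. Capitals mark every match.
*Slc2a1*, chr4:119108595-119108744, plus strand: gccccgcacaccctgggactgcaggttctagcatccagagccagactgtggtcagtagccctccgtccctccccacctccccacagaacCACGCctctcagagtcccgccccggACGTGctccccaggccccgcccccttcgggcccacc
*Pfkfb3*, chr2:11502091-11502240, minus strand: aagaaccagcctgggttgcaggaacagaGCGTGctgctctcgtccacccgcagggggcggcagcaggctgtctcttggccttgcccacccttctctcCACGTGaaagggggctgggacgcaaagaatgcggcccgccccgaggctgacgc
*Ldha*, chr7:46845654-46845803, plus strand: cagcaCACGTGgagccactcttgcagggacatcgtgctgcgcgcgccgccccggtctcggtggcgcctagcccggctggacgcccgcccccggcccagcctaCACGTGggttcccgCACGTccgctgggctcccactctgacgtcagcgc
*Bnip3*, chr7:138909507-138909656, minus strand: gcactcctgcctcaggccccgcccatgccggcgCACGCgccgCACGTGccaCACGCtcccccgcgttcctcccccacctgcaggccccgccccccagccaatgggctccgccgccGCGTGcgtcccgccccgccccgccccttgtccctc

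The gene *Pkm* makes the M1 or the M2 form of pyruvate kinase by using either of 2 neighbouring exons of 167 bases each. The ratio of 2 isoforms that hold these exons changed with OGD. The M1 exon belongs to the isoform Pkm-202 and the M2 exon to Pkm-201, in the GENCODE annotation of GRCm38. The sequences agree at 103 of 167 bases (61.7%); capitals mark the 64 that differ, so reads over these exons can be assigned to either form.
Pkm-202 exon, chr9:59675029-59675195, plus strand: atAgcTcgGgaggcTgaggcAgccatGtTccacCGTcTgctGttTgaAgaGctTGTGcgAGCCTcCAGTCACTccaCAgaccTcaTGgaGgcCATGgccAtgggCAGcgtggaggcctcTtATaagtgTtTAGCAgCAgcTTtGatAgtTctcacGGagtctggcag
Pkm-201 exon, chr9:59675568-59675734, plus strand: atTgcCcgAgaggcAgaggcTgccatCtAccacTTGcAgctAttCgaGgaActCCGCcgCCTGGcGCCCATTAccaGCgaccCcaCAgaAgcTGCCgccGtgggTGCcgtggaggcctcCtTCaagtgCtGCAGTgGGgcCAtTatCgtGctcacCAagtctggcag

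The depth estimated from the scaled FPKM was 19.7 to 25.5 M reads per culture (median 22.5 M), at which 1 read on 1 kb gives 0.0412 to 0.0534 FPKM. Values of *Slc16a3*, *Adm* and *Car9* therefore rest on few reads. Marker sums, unlike the levels of single genes, were taken with isoforms weighted by length. The cultures held neuron transcripts: the summed level of 8 neuron markers (such as *Rbfox3* and *Snap25*) was 3845, 3953, 4153 and 4399 FPKM in CONTROL-VEH, 3835, 3858, 4012 and 3805 FPKM in CONTROL-TIA, 3434, 2551, 2523 and 1577 FPKM in OGD-VEH and 3683, 3647, 3782 and 2182 FPKM in OGD-TIA. All 8 had a log2 fold change below 0 over all OGD against all CONTROL cultures, and 7 of 8 fell with an adjusted p of at most 0.05, as did 5 of 6 markers of excitatory neurons. Of all 16313 genes tested in this comparison, 18.7% rose and 13.4% fell at that limit, beside which the marker counts here stand. Of 6 markers of inhibitory neurons, 2 fell and 1 rose, and of 2 fibroblast and mural cell markers tested, 1 fell. The sum of 8 astrocyte markers ranged from 504 to 757 FPKM in the controls, from 681 to 1795 FPKM in OGD-VEH and from 516 to 1284 FPKM in OGD-TIA, and 4 of 8 rose. The sum of the oligodendrocyte lineage list ranged from 169 to 212 FPKM in the controls and from 233 to 628 FPKM after OGD (4 of 6 tested rose, 1 fell), and that of the progenitor list from 107 to 162 and from 130 to 430 FPKM (4 of 7 rose). Microglia and endothelial lists summed to at most 2.64 and 1.61 FPKM in any culture, with *Cx3cr1* at 0 in 12 cultures, *Cdh5* in 10 and *Cldn5* in 12. OGD-VEH 12 stood farthest from the controls in the neuron, astrocyte, oligodendrocyte lineage and progenitor sums, OGD-TIA 16 farthest of the OGD-TIA cultures, OGD-VEH 9 was the OGD-VEH culture nearest to them, and CONTROL-VEH 4 had the highest astrocyte sum of the controls. In bulk RNA, fewer cells of a type and less RNA per cell cannot be told apart, and the part of these marker shifts in the results was not tested.

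The question of the first comparison was what OGD did to these genes without the drug. In OGD-VEH against CONTROL-VEH, no gene of the set passed an adjusted p of 0.05 together with a 2-fold change, against 4.09% of all 16346 genes tested (limma, a linear model that pools the variance over genes, on log2(FPKM + 0.1), with Benjamini-Hochberg adjustment over all genes). Without the fold limit, 1 of the 42 genes tested passed: *Pfkp*, the platelet-type phosphofructokinase and the most abundant of the 3 in these cultures, fell by 0.94 ± 0.23 on the log2 scale (adjusted p = 0.0447), against 8.44% of all genes (4.99% higher and 3.45% lower). At an unadjusted p under 0.05 there were 4 higher and 10 lower genes, 9.52% and 23.8% of the 42, and 20.2% and 14.9% of all genes. The median log2 fold change of the 42 was -0.04 and that of all genes 0.10. OGD-VEH cultures lay wholly above CONTROL-VEH cultures for 2 of the 42 and wholly below for 2, against 12.7% and 9.95% of all genes. Leaving out OGD-VEH 9, 11 genes passed (3 higher, 8 lower) and 5 also changed 2-fold (*Eno2*, *Hk1*, *Pdk1*, *Pfkp* lower and *Slc2a1* higher), 26.2% and 11.9% of the 42, where 30.5% and 13.4% of all genes did. Leaving out any of the other 7 cultures left none of the set, and 1 to 106 of all genes, with *Pfkp* at an adjusted p of up to 0.121. With isoforms weighted by length, all 16 cultures in 1 fit, or cultures weighted by their quality, 8, 10 and 19 genes passed (19%, 23.8% and 45.2%), and 24.8%, 28.3% and 38.8% of all genes did. *Car9*, a carbonic anhydrase, was at most 0.287 FPKM in any culture and below the filter.

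**Figure D1:**
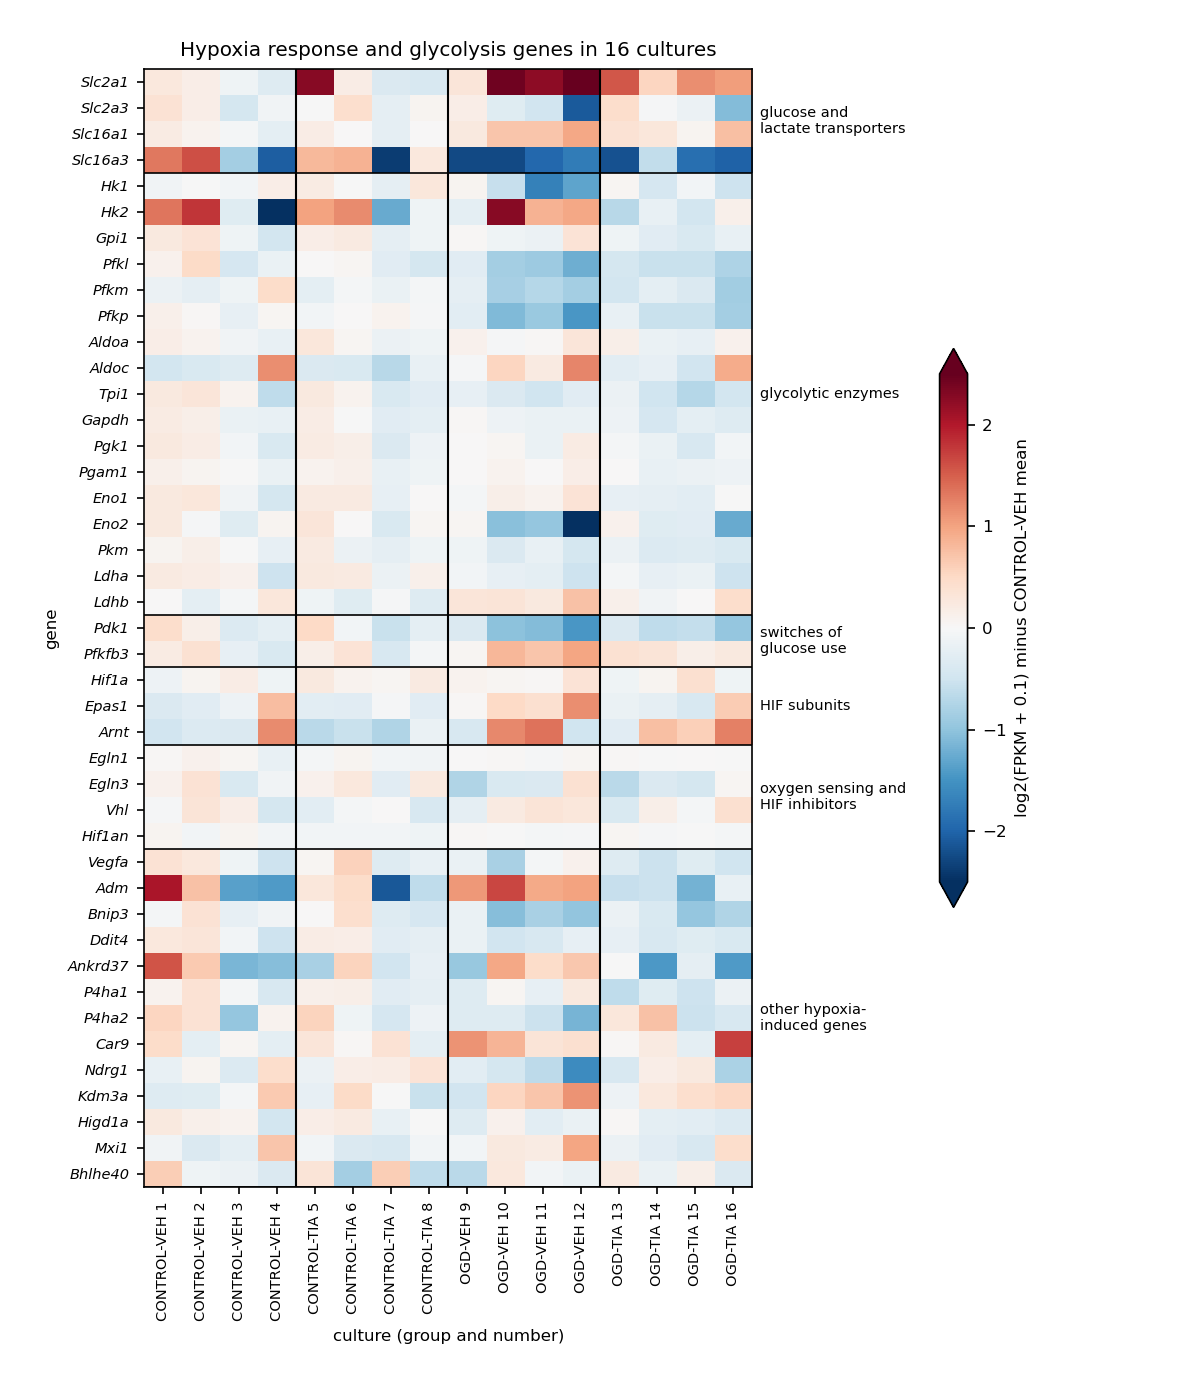
Levels of the 43 genes (rows, grouped by role) in the 16 cultures (columns), as log2(FPKM + 0.1) minus the mean of the CONTROL-VEH cultures; red is higher and blue lower, and the scale ends at 2.5 in either direction. *Slc2a1* and *Slc16a1* are red and the phosphofructokinases and *Pdk1* blue in OGD-VEH 10 to 12, whereas *Hif1a*, *Egln1* and *Hif1an* are near white in all groups; OGD-VEH 9 resembles the controls in most rows.

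With TIA, none of the 41 genes tested in OGD-TIA against CONTROL-TIA passed an adjusted p of 0.05, nor did any of all genes tested (0%), by limma. At an unadjusted p under 0.05, 3 were higher and 7 lower, 7.32% and 17.1% of the 41, against 11.6% and 7.92% of all genes, and the median log2 fold change was -0.23 (0.04 over all genes). The OGD effect was also fitted over all 16 cultures, 8 against 8, with the drug as a term. In all OGD against all CONTROL cultures, 13 of the 42 genes tested passed an adjusted p of 0.05 (31.0%), close to the 32.1% of all 16313 genes. Of these, 4 rose and 9 fell, where 18.7% of all genes rose and 13.4% fell; with median-ratio scaling the numbers were 3 and 12, and 15% of all genes rose and 16% fell. With the 2-fold limit 2 passed, *Slc2a1* (higher) and *Slc16a3* (lower), against 4.78% of all genes. *Slc16a3* averaged 0.1895 FPKM in OGD-VEH and 0.313 FPKM in OGD-TIA, below the filter of 0.5 FPKM. It was tested only because of its control levels (means 1.78 and 1.38 FPKM), so its call is no independent support. The genes that rose were *Slc2a1*, *Slc16a1*, *Ldhb* and *Pfkfb3*, and those that fell were *Slc16a3*, *Hk1*, *Pfkl*, *Pfkm*, *Pfkp*, *Pkm*, *Ldha*, *Pdk1* and *Bnip3*. The median log2 fold change of the 42 was -0.12 and that of all genes 0.08; none of the 42 had OGD cultures wholly above or below the controls (3.22% and 2.42% of all genes). The interaction, which compares the OGD effect of the TIA arm with that of the vehicle arm, passed for none of the 42 and for no gene at all (0%; limma), and none of the 42 had an unadjusted p under 0.05 (6.06% of all genes).

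**Figure D2:**
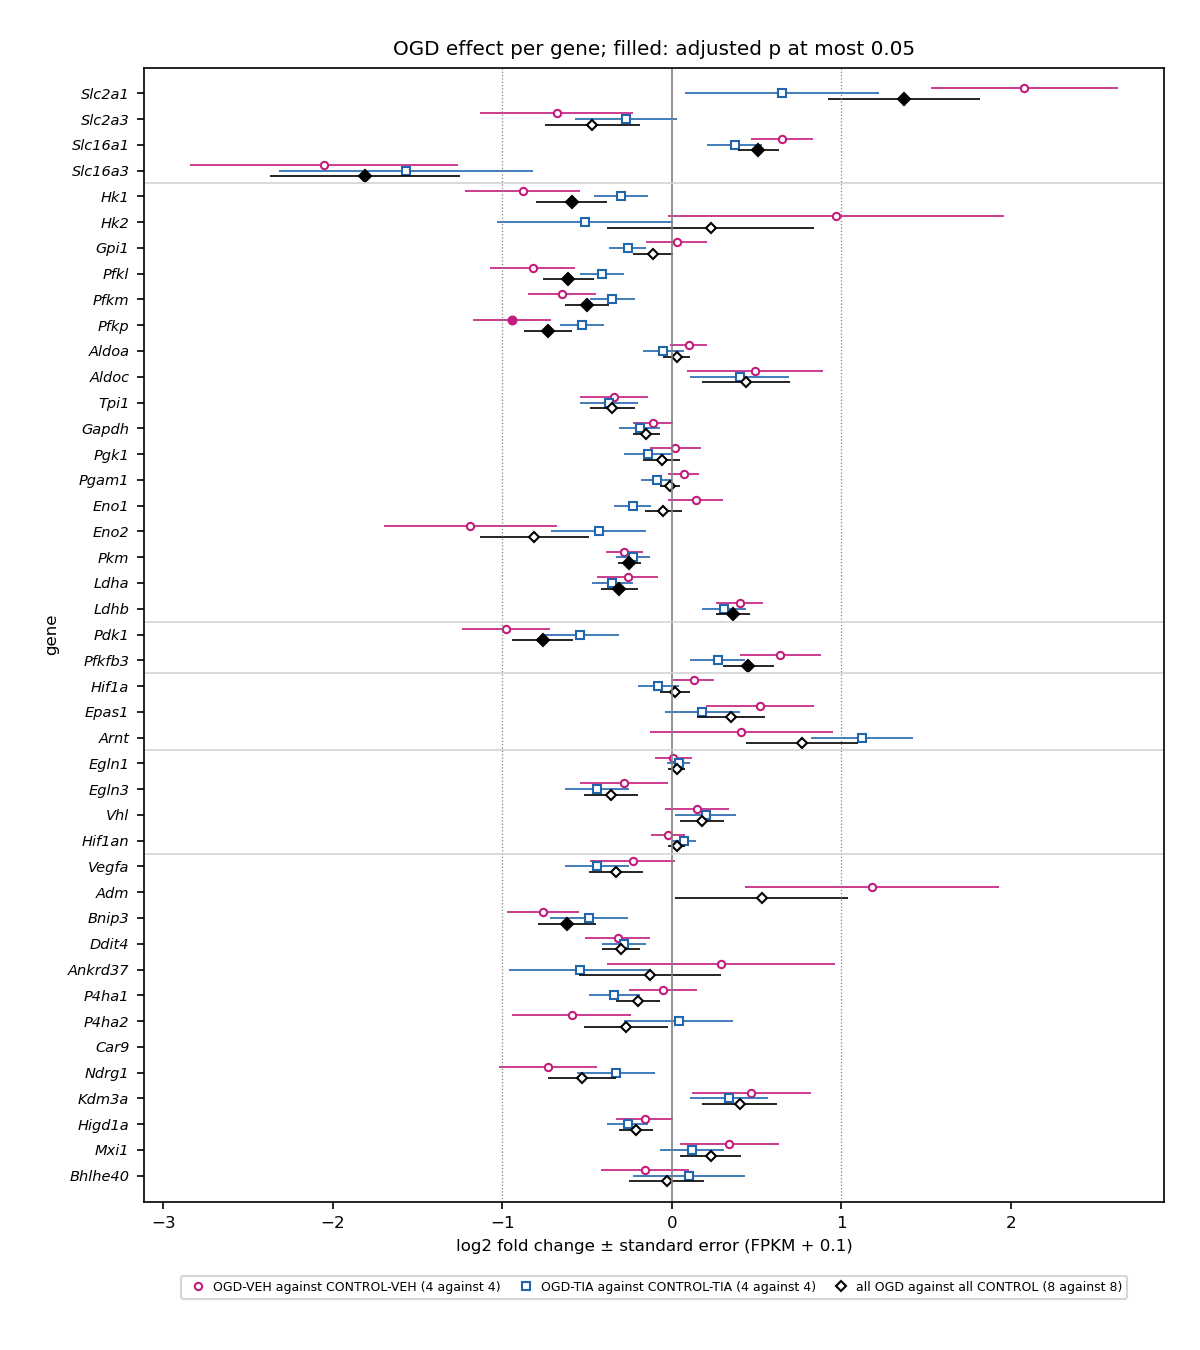
Log2 fold change with OGD for each gene (rows, in the order of the heat map), with its standard error, for vehicle cultures (circles), TIA cultures (squares) and all cultures (diamonds); filled symbols have an adjusted p of at most 0.05 and dotted lines mark a 2-fold change. *Car9* and, with TIA, *Adm* were below the filter on low values and are not drawn. The 13 filled diamonds are 4 higher and 9 lower genes, and the only filled circle is *Pfkp*.

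Among the transporters, the facilitative glucose carrier GLUT1 and the lactate and pyruvate carrier MCT1 rose, and the lactate exporter MCT4 fell. *Slc2a1*, which encodes GLUT1 (ENSMUSG00000028645, chr4:119108711-119137983), was at 10.4, 9.60, 7.92 and 6.89 FPKM in CONTROL-VEH and 42.05, 9.76, 6.64 and 6.47 FPKM in CONTROL-TIA. After OGD it was at 10.6, 46.5, 40.8 and 88.7 FPKM in OGD-VEH and 25.4, 12.6, 19.3 and 17.9 FPKM in OGD-TIA. All OGD-VEH cultures lay above all CONTROL-VEH cultures, as did 2082 or 12.7% of all genes, but OGD-VEH 9 was close to the highest control, and CONTROL-TIA 5 lay above every OGD-TIA culture. The log2 fold change was 2.08 ± 0.55 with vehicle (adjusted p = 0.0518) and 0.65 ± 0.57 with TIA (adjusted p = 0.540), and 1.37 ± 0.45 over both (2.58-fold, adjusted p = 0.0316). The summed level depends on a 434-base isoform, Slc2a1-205, estimated at up to 64.8 FPKM in some cultures and at 0 in others; with isoforms weighted by length the change over both arms was 0.95 ± 0.25 (adjusted p = 0.00811). The call over both arms was lost without any of CONTROL-VEH 1 to 4, CONTROL-TIA 7 or 8, or OGD-VEH 10 to 12 (adjusted p up to 0.0639), and without a filter or with protein-coding isoforms.

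*Slc16a1*, which encodes MCT1 (ENSMUSG00000032902, chr3:104638668-104658462), has a single isoform and was at 11.50, 10.6, 9.73 and 8.48 FPKM in CONTROL-VEH and 11.4, 10.1, 8.56 and 10.02 FPKM in CONTROL-TIA. In the OGD groups it was at 11.9, 16.3, 16.2 and 19.7 FPKM in OGD-VEH and 12.8, 12.3, 10.5 and 16.9 FPKM in OGD-TIA. OGD-VEH cultures were all higher than CONTROL-VEH cultures, as for 12.7% of all genes, whereas OGD-TIA and CONTROL-TIA overlapped through OGD-TIA 15. OGD against CONTROL gave a log2 fold change of 0.65 ± 0.18 with vehicle (adjusted p = 0.0528) and 0.37 ± 0.16 with TIA (adjusted p = 0.251), and 0.51 ± 0.12 over both (1.42-fold, adjusted p = 0.00751); the last held without any single culture. *Slc16a3*, which encodes MCT4 (ENSMUSG00000025161, chr11:120948480-120960868), was at 2.86, 3.52, 0.556 and 0.185 FPKM in CONTROL-VEH and 1.99, 2.08, 0.128 and 1.33 FPKM in CONTROL-TIA, a wide spread within either group. The OGD cultures were at 0.150, 0.148, 0.204 and 0.256 FPKM in OGD-VEH and 0.161, 0.677, 0.222 and 0.191 FPKM in OGD-TIA. Of the 8 controls, 5 were above every OGD culture, and CONTROL-VEH 3 and 4 and CONTROL-TIA 7 were within or below the OGD range. Its log2 fold change was -2.05 ± 0.79 with vehicle (adjusted p = 0.107) and -1.57 ± 0.75 with TIA (adjusted p = 0.288), and -1.81 ± 0.56 over both (adjusted p = 0.0239), on a scale that understates changes of such low levels. *Slc2a3*, which encodes the neuronal glucose carrier GLUT3, ranged from 54.4 to 98.5 FPKM in the controls and from 17.2 to 101 FPKM after OGD, lowest in OGD-VEH 12 and OGD-TIA 16, with a log2 fold change of -0.47 ± 0.28 (adjusted p = 0.212).

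**Figure D3:**
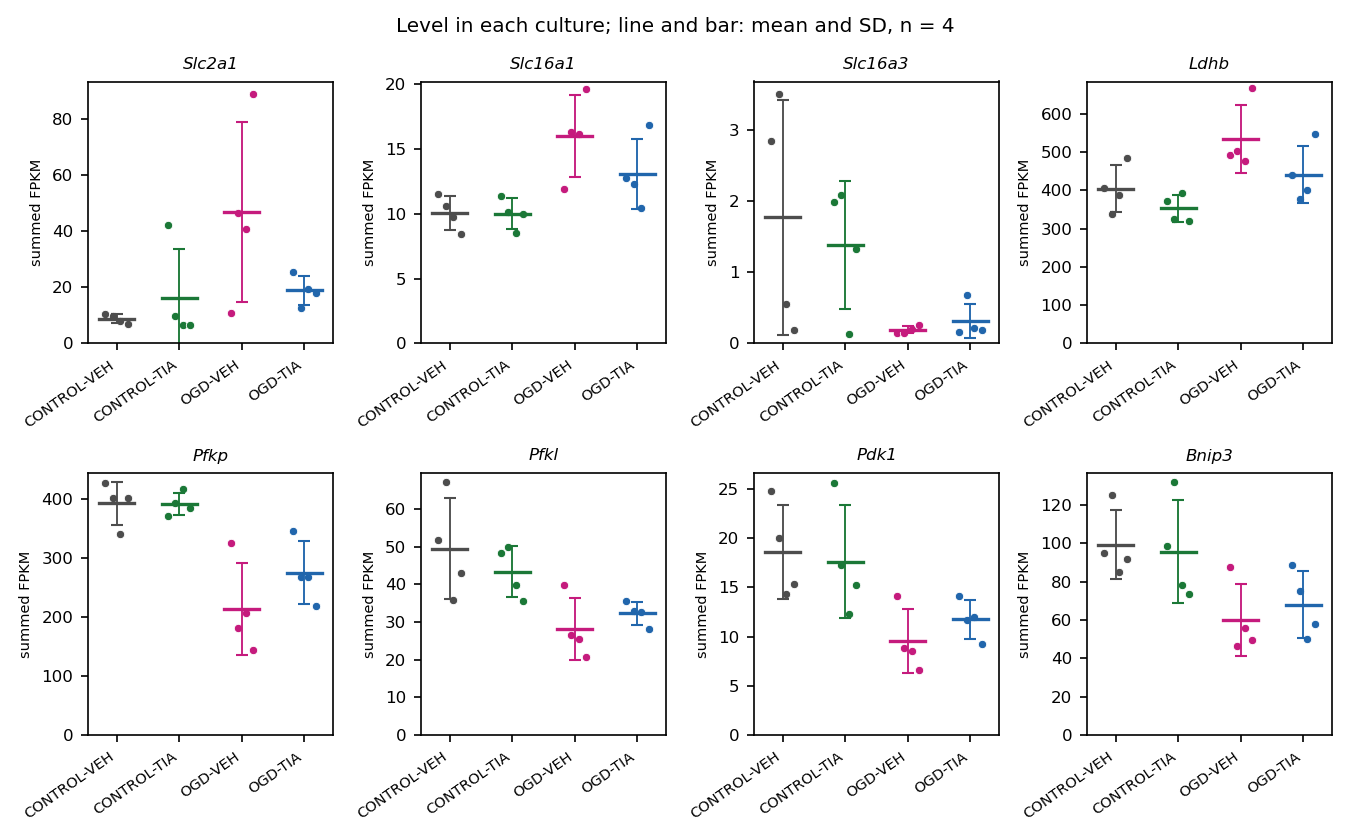
Summed FPKM of 8 of the genes in every culture (points), with the mean (line) and SD (bar, cut off at 0) of the 4 cultures of a group; each axis starts at 0. *Slc2a1*, *Slc16a1* and *Ldhb* are higher and *Slc16a3*, *Pfkp*, *Pfkl*, *Pdk1* and *Bnip3* lower in most OGD cultures, and OGD-VEH 9 is the OGD-VEH point nearest the controls in all but *Slc16a3* and *Ldhb*.

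Of the 17 glycolytic enzymes, 6 fell and 1 rose over all OGD against all CONTROL cultures (41.2%, against 32.1% of all genes). The 3 phosphofructokinases, which form the tetramer that commits glucose to glycolysis, fell together. *Pfkp* (ENSMUSG00000021196, chr13:6579768-6648777) was at 427, 402, 342 and 403 FPKM in CONTROL-VEH and 372, 393, 418 and 385 FPKM in CONTROL-TIA. With OGD its level was 325, 181, 207 and 143 FPKM in OGD-VEH and 347, 268, 268 and 219 FPKM in OGD-TIA. Every OGD culture was below every control of its arm, as for 9.95% (vehicle) and 6.72% (TIA) of all genes; OGD-TIA 13 was the only OGD culture above any control, CONTROL-VEH 3. On the log2 scale the OGD effect was -0.94 ± 0.23 with vehicle (adjusted p = 0.0447) and -0.53 ± 0.13 with TIA (adjusted p = 0.126), and -0.73 ± 0.14 over both (adjusted p = 0.00326).

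*Pfkl*, the liver-type form (ENSMUSG00000020277, chr10:77986947-78010083), was at 51.7, 67.2, 35.9 and 43.03 FPKM in CONTROL-VEH and 48.3, 49.97, 39.7 and 35.5 FPKM in CONTROL-TIA. The levels after OGD were 39.8, 26.6, 25.4 and 20.6 FPKM in OGD-VEH and 35.6, 32.8, 32.7 and 28.2 FPKM in OGD-TIA. OGD-VEH 9 overlapped the controls, and OGD-TIA 13 was level with CONTROL-TIA 8. limma gave a log2 fold change of -0.82 ± 0.25 with vehicle (adjusted p = 0.0642) and -0.41 ± 0.13 with TIA (adjusted p = 0.174), and -0.61 ± 0.15 over both (adjusted p = 0.00862). *Pfkm*, the muscle-type form (ENSMUSG00000033065, chr15:98092589-98132451), was at 124, 117, 127 and 189 FPKM in CONTROL-VEH and 116, 132, 122 and 132 FPKM in CONTROL-TIA, with CONTROL-VEH 4 above all others. After OGD it was at 118, 77.1, 83.5 and 75.6 FPKM in OGD-VEH and 99.5, 116, 106 and 75.4 FPKM in OGD-TIA. No OGD-TIA culture reached the lowest CONTROL-TIA culture, as for 6.72% of all genes, while OGD-VEH 9 lay just above CONTROL-VEH 2. The log2 fold change was -0.65 ± 0.20 with vehicle (adjusted p = 0.0628) and -0.35 ± 0.13 with TIA (adjusted p = 0.212), and -0.50 ± 0.13 over both (adjusted p = 0.00915). For all 3 phosphofructokinases the call over both arms held without any single culture.

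*Hk1*, the brain hexokinase that traps glucose in the cell (ENSMUSG00000037012, chr10:62268855-62379908), was at 209, 219.7, 212 and 248 FPKM in CONTROL-VEH and 256, 219, 191 and 269.8 FPKM in CONTROL-TIA. In the OGD groups it was at 233, 149, 68.3 and 88.6 FPKM in OGD-VEH and 229.6, 165, 212 and 154 FPKM in OGD-TIA. OGD-VEH 10 to 12 and OGD-TIA 14 and 16 lay below every control, and the other OGD cultures did not. OGD against CONTROL gave a log2 fold change of -0.88 ± 0.34 with vehicle (adjusted p = 0.108) and -0.30 ± 0.16 with TIA (adjusted p = 0.329), and -0.59 ± 0.21 over both (adjusted p = 0.0413), a call that was lost without any 1 of 11 cultures (CONTROL-VEH 1 to 4, CONTROL-TIA 5 and 8, OGD-VEH 10 to 12, OGD-TIA 14 and 16; adjusted p up to 0.0827) and without a filter, with protein-coding isoforms or with array weights. *Hk2*, the inducible hexokinase, was far lower, from 0.125 to 7.67 FPKM, and highest in OGD-VEH 10 and CONTROL-VEH 2.

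*Ldha* and *Ldhb* encode the lactate dehydrogenase subunits that favour lactate formation and lactate use, and they moved in opposite directions. *Ldha* (ENSMUSG00000063229, chr7:46841475-46855627) was at 700.2, 678, 644 and 417 FPKM in CONTROL-VEH and 709, 699, 539 and 651 FPKM in CONTROL-TIA. The OGD cultures were at 567, 515, 506 and 416 FPKM in OGD-VEH and 579, 517, 529 and 415 FPKM in OGD-TIA. CONTROL-VEH 4 was as low as the lowest OGD cultures, and the other CONTROL-VEH cultures were above all OGD-VEH cultures. Its log2 fold change was -0.26 ± 0.18 with vehicle (adjusted p = 0.310) and -0.35 ± 0.12 with TIA (adjusted p = 0.197), and -0.31 ± 0.11 over both (adjusted p = 0.0443); the last was lost without any 1 of 12 cultures, all but CONTROL-VEH 4, CONTROL-TIA 7, OGD-VEH 9 and OGD-TIA 13 (adjusted p up to 0.0906), and without a filter. *Ldhb* (ENSMUSG00000030246, chr6:142490249-142507957) was at 406, 339, 387 and 486 FPKM in CONTROL-VEH and 372, 326, 393 and 320.3 FPKM in CONTROL-TIA. With OGD its level was 492, 502, 478 and 668 FPKM in OGD-VEH and 439.8, 377, 402 and 547 FPKM in OGD-TIA. OGD-VEH 12 and OGD-TIA 16 were highest, and CONTROL-VEH 4 was the only control within the OGD-VEH range. On the log2 scale the OGD effect was 0.40 ± 0.14 with vehicle (adjusted p = 0.0895) and 0.31 ± 0.13 with TIA (adjusted p = 0.232), and 0.36 ± 0.10 over both (adjusted p = 0.0135), held without any single culture.

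*Pkm*, pyruvate kinase (ENSMUSG00000032294, chr9:59656368-59679375), was at 799, 838, 758 and 657 FPKM in CONTROL-VEH and 883, 686, 646 and 704 FPKM in CONTROL-TIA over all its isoforms. The levels after OGD were 702, 589, 667 and 558 FPKM in OGD-VEH and 691, 599, 608 and 582 FPKM in OGD-TIA. The groups overlapped in both arms, with OGD-VEH 9 and 11 above CONTROL-VEH 4 and OGD-TIA 13 above CONTROL-TIA 6 and 7. limma gave a log2 fold change of -0.28 ± 0.11 with vehicle (adjusted p = 0.103) and -0.23 ± 0.10 with TIA (adjusted p = 0.274), and -0.25 ± 0.07 over both (adjusted p = 0.0188), held without any single culture. The other 10 glycolytic enzymes did not pass in any comparison under the main settings. *Eno1*, the general enolase, was the most abundant of the set, from 1072 to 1846 FPKM. *Eno2*, neuron-specific enolase, ranged from 130 to 211 FPKM in the controls, was 24.4 FPKM in OGD-VEH 12 and 70.9 FPKM in OGD-TIA 16, and had a log2 fold change of -0.81 ± 0.32 (adjusted p = 0.0629). *Aldoc*, the aldolase typical of astrocytes, was at 838, 872 and 713 FPKM in CONTROL-VEH 4, OGD-VEH 12 and OGD-TIA 16 and at 234 to 544 FPKM in the other cultures (log2 fold change 0.44 ± 0.26, adjusted p = 0.196). *Gpi1*, *Aldoa*, *Tpi1*, *Gapdh*, *Pgk1* and *Pgam1* had log2 fold changes between -0.35 and 0.03 over both arms. Several of these enzymes, *Gapdh* above all, have many processed pseudogenes, between which 50-base reads may be divided, and the isoforms of *Aldoa* are listed under 2 Ensembl gene identifiers.

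The M1 and M2 isoforms of *Pkm*, whose exons are printed above, and 8 ratios between related genes were examined after the values were seen. Other isoforms make up the larger part of the summed *Pkm* level. Pkm-202 and Pkm-201 had means of 124 and 119.5 FPKM in CONTROL-VEH, of a summed mean of 763 FPKM. In OGD-VEH the means were 73.4 and 138 of 629 FPKM. The exon use of the other isoforms was not examined. Pkm-202 (M1), of 2041 bases, was at 136, 125, 117 and 117 FPKM in CONTROL-VEH and 132, 119.6, 113 and 111 FPKM in CONTROL-TIA. After OGD it was at 105, 65.6, 63.1 and 60.1 FPKM in OGD-VEH and 102, 92.4, 93.5 and 59.9 FPKM in OGD-TIA, below every control in all 8 cultures. For whole genes this held for 2.42% of all tested, and it was not counted over all isoforms. Pkm-201 (M2), of 2432 bases, ranged from 107 to 138 FPKM in the controls and from 106 to 159 FPKM after OGD, highest in OGD-VEH 12. M1 therefore made up 50.4, 52.4, 48.7 and 52.3% of both isoforms in CONTROL-VEH and 49.05, 51.8, 49.99 and 50.2% in CONTROL-TIA. In OGD-VEH the share was 46.8, 31.4, 32.4 and 27.4%, and in OGD-TIA 45.4, 46.7, 46.5 and 30.5%. No OGD culture reached the lowest control, and OGD-VEH 10 to 12 and OGD-TIA 16 were far lower than OGD-VEH 9 and OGD-TIA 13 to 15. The mean difference within the arms was -12.2 percentage points (two-sided exact permutation within both arms, p = 0.000408, the smallest that 4900 assignments give, and 0.00367 adjusted over 9 shares). It was -16.4 points with vehicle and -8.01 points with TIA (each exact permutation p = 0.0286, the smallest for 4 against 4, and 0.129 and 0.257 adjusted over 9 shares).

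The other 8 shares set 1 form against its relatives in the set at the same step, on the FPKM scale. *Ldhb* made up 36.7, 33.3, 37.6 and 53.8% of both lactate dehydrogenase genes in CONTROL-VEH and 34.4, 31.8, 42.2 and 32.97% in CONTROL-TIA. In OGD-VEH it was 46.4, 49.4, 48.6 and 61.6% and in OGD-TIA 43.2, 42.2, 43.1 and 56.8%, higher by 11.1 points (exact permutation p = 0.00571, adjusted 0.0171), with only CONTROL-VEH 4 and CONTROL-TIA 7 near or within the OGD range. *Slc16a3* made up 19.9, 24.9, 5.40 and 2.14% of the sum of *Slc16a1* and *Slc16a3* in CONTROL-VEH and 14.9, 17.1, 1.47 and 11.7% in CONTROL-TIA. In all OGD cultures it made up 0.900 to 5.23%, lower by 10.4 points (exact permutation p = 0.00286, adjusted 0.0129). The lactate carrier *Slc16a7* was not part of this sum. GLUT3 made up 87.3 to 91.0% of the sum of *Slc2a1* and *Slc2a3* in CONTROL-VEH, and 88.7, 56.2, 56.4 and 16.2% in OGD-VEH (-35.13 points). It made up 63.5 to 92.3% in CONTROL-TIA and 65.9 to 85.2% in OGD-TIA (-7.17 points); the difference over both arms was -21.2 points (adjusted p = 0.0606, exact permutation). The shares of *Hk1*, *Pfkm*, *Pfkp*, *Aldoc* and *Eno2* had adjusted p between 0.0977 and 0.183. With isoforms weighted by length, the *Pfkm* share was higher by 6.29 points and the *Pfkp* share differed by -7.02 points, in place of 2.78 and -2.95 (both adjusted p = 0.00327), and the GLUT3 share passed (-18.92 points, adjusted p = 0.0131, exact permutation). With protein-coding isoforms none of these passed, and the *Aldoc* difference was 1.14 in place of 7.17 points. In summed values no share passed between TIA and vehicle (smallest adjusted p 0.367 after OGD and 0.9 in the controls, exact permutation). The M1, *Ldhb* and *Slc16a3* shares kept their direction without any single culture; the last 2 had an adjusted p of 0.0514 without OGD-VEH 12 (exact permutation).

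**Figure D4:**
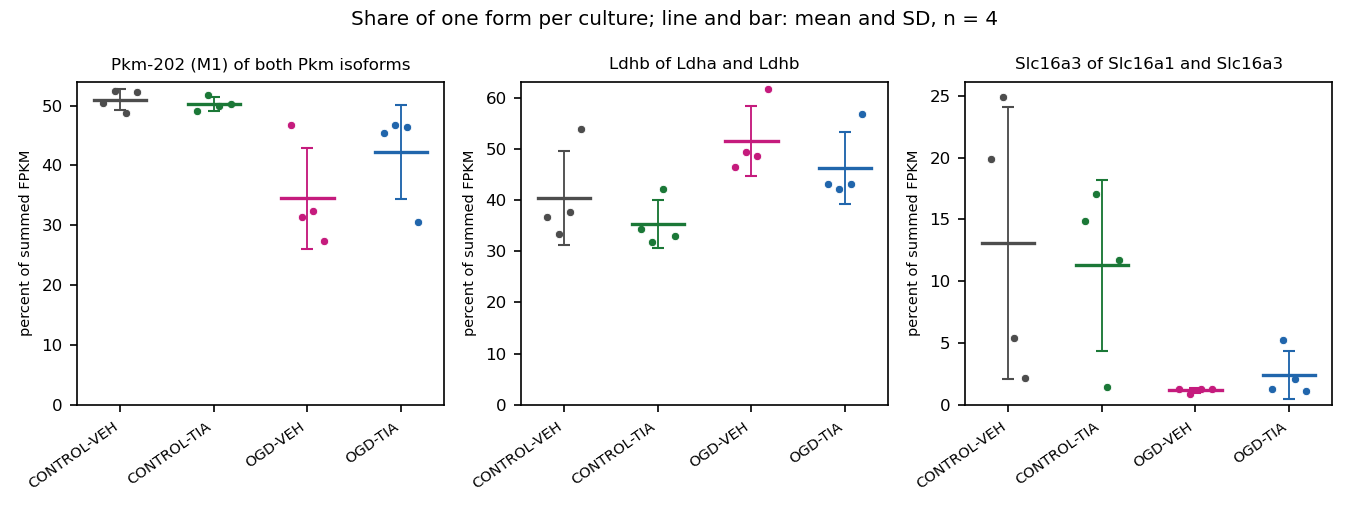
Share of Pkm-202 (M1) in the sum of Pkm-202 and Pkm-201 (M2), of *Ldhb* in both lactate dehydrogenase genes and of *Slc16a3* in the sum of *Slc16a1* and *Slc16a3*, in percent of summed FPKM, per culture (points) with mean (line) and SD (bar) of 4 cultures. The M1 share is 48.7 to 52.4% in all 8 controls and 27.4 to 46.8% after OGD.

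Both enzymes that direct glucose changed, in opposite directions. *Pdk1*, which inhibits pyruvate dehydrogenase (ENSMUSG00000006494, chr2:71873224-71903858), was at 24.8, 20.05, 14.3 and 15.3 FPKM in CONTROL-VEH and 25.7, 17.3, 12.3 and 15.2 FPKM in CONTROL-TIA. In the OGD groups it was at 14.1, 8.83, 8.57 and 6.60 FPKM in OGD-VEH and 14.1, 11.7, 12.02 and 9.27 FPKM in OGD-TIA. All OGD-VEH cultures were below all CONTROL-VEH cultures, as for 9.95% of all genes, and in the TIA arm CONTROL-TIA 7 lay within the OGD range. The log2 fold change was -0.98 ± 0.26 with vehicle (adjusted p = 0.0518) and -0.54 ± 0.23 with TIA (adjusted p = 0.244), and -0.76 ± 0.18 over both (adjusted p = 0.00835), held without any single culture but lost with protein-coding isoforms (-0.34 ± 0.17, adjusted p = 0.124). *Pfkfb3*, whose product stimulates phosphofructokinase (ENSMUSG00000026773, chr2:11471433-11554077), was at 32.3, 36.3, 24.1 and 21.5 FPKM in CONTROL-VEH and 30.7, 35.6, 21.04 and 27.05 FPKM in CONTROL-TIA. The OGD cultures were at 28.8, 49.5, 45.5 and 55.6 FPKM in OGD-VEH and 36.4, 35.05, 30.9 and 33.3 FPKM in OGD-TIA. OGD-VEH 10 to 12 were above every control, and the OGD-TIA cultures lay within or just above the CONTROL-TIA range. OGD against CONTROL gave a log2 fold change of 0.64 ± 0.24 with vehicle (adjusted p = 0.105) and 0.27 ± 0.16 with TIA (adjusted p = 0.374), and 0.45 ± 0.15 over both (adjusted p = 0.0356), lost without any of CONTROL-VEH 3 or 4, CONTROL-TIA 7 or 8, or OGD-VEH 10 to 12 (adjusted p up to 0.0718), and also without a filter, with median-ratio scaling or with protein-coding isoforms (0.25 ± 0.13, adjusted p = 0.151).

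The summed mRNA levels of HIF and of its oxygen sensors did not pass in any comparison under the main settings. *Hif1a* (ENSMUSG00000021109, chr12:73901375-73947530), which encodes HIF-1α, was at 71.6, 82.2, 89.4 and 72.9 FPKM in CONTROL-VEH and 92.6, 83.8, 81.8 and 91.96 FPKM in CONTROL-TIA. With OGD its level was 83.98, 81.9, 80.2 and 99.6 FPKM in OGD-VEH and 73.5, 83.00, 104 and 73.5 FPKM in OGD-TIA. The groups overlapped throughout, and the highest values were in OGD-TIA 15 and OGD-VEH 12. Its log2 fold change was 0.13 ± 0.12 with vehicle (adjusted p = 0.456) and -0.08 ± 0.12 with TIA (adjusted p = 0.735), and 0.02 ± 0.09 over both (adjusted p = 0.852); its sign turned with median-ratio scaling (-0.04). *Epas1* was 4.37 to 9.76 FPKM in the controls and 4.26 to 12.8 FPKM after OGD, highest in OGD-VEH 12, CONTROL-VEH 4 and OGD-TIA 16. *Arnt* was 12.4 to 47.4 FPKM in the controls and 14.9 to 53.7 FPKM after OGD (log2 fold change 0.77 ± 0.33, adjusted p = 0.0884); its high values came from a 378-base isoform, Arnt-206, estimated at 19.5 to 31.3 FPKM in 6 cultures and at most 0.334 FPKM in the others, and with isoforms weighted by length the change was 0.31 (adjusted p = 0.0203). *Egln1* stayed between 26.4 and 32.4 FPKM and *Hif1an* between 13.5 and 15.3 FPKM in all 16 cultures (log2 fold change 0.03 ± 0.05 and 0.03 ± 0.05). *Egln3*, a sensor that HIF itself induces, had a log2 fold change of -0.36 ± 0.16 (adjusted p = 0.0983), and *Vhl* of 0.18 ± 0.13 (adjusted p = 0.311). Over all cultures *Egln3* passed with array weights and without OGD-VEH 12 (lowest adjusted p 0.0197, limma). *Vhl* passed with isoforms weighted by length and with protein-coding isoforms (lowest adjusted p 0.0242, limma).

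Of the other 13 hypoxia-induced genes, 12 were tested and 1 passed over all cultures (8.33%, against 32.1% of all genes). *Bnip3*, a mitochondrial receptor for autophagy (ENSMUSG00000078566, chr7:138890836-138909519), was at 94.8, 126, 85.2 and 91.8 FPKM in CONTROL-VEH and 98.8, 132, 78.1 and 73.4 FPKM in CONTROL-TIA. The levels after OGD were 87.4, 46.6, 56.04 and 49.8 FPKM in OGD-VEH and 88.9, 75.1, 50.2 and 58.05 FPKM in OGD-TIA. OGD-VEH 10 to 12 and OGD-TIA 15 and 16 lay below every control, and OGD-VEH 9 and OGD-TIA 13 and 14 did not. On the log2 scale the OGD effect was -0.76 ± 0.21 with vehicle (adjusted p = 0.0571) and -0.49 ± 0.23 with TIA (adjusted p = 0.291), and -0.62 ± 0.17 over both (adjusted p = 0.0127), held without any single culture. *Vegfa*, the vascular growth factor, ranged from 75.2 to 161 FPKM in the controls and from 60.9 to 117 FPKM after OGD, with a log2 fold change of -0.33 ± 0.16 (adjusted p = 0.127). *Ddit4*, an inhibitor of mTOR signalling, had a log2 fold change of -0.30 ± 0.11 (adjusted p = 0.0543) and *Ndrg1* of -0.53 ± 0.20 (adjusted p = 0.0523), with *Ndrg1* lowest in OGD-VEH 12 (83.7 FPKM). *Higd1a*, *P4ha1*, *P4ha2*, *Ankrd37* and *Bhlhe40* had log2 fold changes between -0.27 and -0.03, and *Mxi1*, *Kdm3a* and *Adm* between 0.23 and 0.53, all with an adjusted p of at least 0.134.

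Further genes of the same pathways were counted from lists written from general knowledge. Of 31 further HIF pathway and hypoxia genes tested over all cultures, 4 rose and 5 fell (29.0%, against 32.1% of all genes). *Hmox1*, heme oxygenase 1, had a log2 fold change of 2.45 ± 0.50 (adjusted p = 0.00391), from a mean of 38.1 FPKM in the controls to 196 FPKM after OGD, and *Pgm1*, a phosphoglucomutase, of 1.33 ± 0.37 (adjusted p = 0.0154). Both also passed with vehicle alone (3.03 ± 0.67, adjusted p = 0.0411, and 1.81 ± 0.46, adjusted p = 0.0479, limma). They were the only genes of the 2 lists that did (6.45% of 31 and 0% of 25 tested), against 8.44% of all genes. *Wsb1* and *Kdm4c* also rose (log2 fold changes 0.38 and 0.51), and *Hif3a*, which encodes a further HIF subunit, fell by 1.09 ± 0.27 (adjusted p = 0.00886). *Bnip3l*, the relative of *Bnip3*, fell by 0.37 with every OGD culture below every control (2.42% of all genes), and *Arnt2*, *Narf* and *Pfkfb4* fell by 0.29, 0.86 and 0.57 on the log2 scale. Of 25 further glucose metabolism genes tested, 4 rose and 3 fell (28%). Those that rose were *G6pdx*, the first enzyme of the pentose phosphate pathway (0.68 ± 0.24, adjusted p = 0.0395), *Pgls* (0.37 ± 0.10, adjusted p = 0.0123), *Pgd* (0.62 ± 0.14, adjusted p = 0.00557) and *Taldo1* (0.52 ± 0.14, adjusted p = 0.0118), further enzymes of it. Of the other enzymes of that pathway on the list, *Tkt* had 0.19 ± 0.08 (adjusted p = 0.0719), *Rpe* 0.27 ± 0.21 and *Rpia* 0.11 ± 0.12. For *Pgd* all OGD cultures were above all controls (3.22% of all genes). Those that fell were the neuronal lactate carrier *Slc16a7* (-0.74 ± 0.22, adjusted p = 0.0196), *Slc2a13* (-0.39 ± 0.12) and *Pfkfb2* (-0.21 ± 0.06).

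The last question was whether TIA changed these genes. Without OGD none of the 42 genes tested in CONTROL-TIA against CONTROL-VEH passed (background 0%), and none had an unadjusted p under 0.05 (3.84% of all genes), by limma. After OGD none of 41 passed in OGD-TIA against OGD-VEH (background 0%; limma), and 5 had an unadjusted p under 0.05, all lower with TIA (12.2% of the 41, against 5.04% of all genes): *Adm*, *Eno1*, *Hk2*, *Gpi1* and *Pgam1*. *Adm*, the vasodilator peptide adrenomedullin, was at 1.51, 2.33, 1.38 and 1.43 FPKM in OGD-VEH and 0.408, 0.422, 0.235 and 0.566 FPKM in OGD-TIA, so the groups did not overlap, as for 2.51% of all genes. Its mean of 0.4077 FPKM in OGD-TIA was below the filter of 0.5 FPKM. *Adm* was tested only because of its level in OGD-VEH (mean 1.66 FPKM), so the lack of overlap is a description. In the controls it was at 3.02, 1.17, 0.198 and 0.184 FPKM in CONTROL-VEH and 0.824, 0.940, 0.0740 and 0.389 FPKM in CONTROL-TIA, of which the first value contains 2.34 FPKM of a 376-base isoform. The log2 fold change between the OGD groups was -1.81 ± 0.30 (adjusted p = 0.501; exact permutation p = 0.0286), at a level of few reads, and the interaction was -1.30 (adjusted p = 0.731). *Pgam1*, phosphoglycerate mutase, was at 189.5, 199, 189 and 209 FPKM in OGD-VEH and 188, 164, 170.2 and 171 FPKM in OGD-TIA, also without overlap (log2 fold change -0.18 ± 0.08, adjusted p = 0.550).

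Several of the genes moved with the neuron marker sum from culture to culture. In OGD-VEH 12, with the lowest sum (1577 FPKM), *Pfkp*, *Pdk1* and *Eno2* were lowest and *Slc2a1*, *Slc16a1*, *Ldhb* and *Pfkfb3* highest of all 16 cultures. OGD-TIA 16 (2182 FPKM) was the lowest or highest OGD-TIA culture for *Pfkp*, *Pdk1*, *Eno2*, *Slc16a1* and *Ldhb*, but not for *Slc2a1* or *Pfkfb3*. OGD-TIA 13 to 15, whose neuron sums (3647 to 3782 FPKM) were just below those of the controls (3805 to 4399 FPKM), had *Pfkp* at 268 to 347 FPKM and an M1 share of 45.4 to 46.7%, below all CONTROL-TIA cultures in both. The oligodendrocyte lineage sums of these cultures (233, 271 and 241.5 FPKM) were above the highest control (212 FPKM). Their *Slc16a1* levels were 12.8, 12.3 and 10.5 FPKM, the last within the CONTROL-TIA range (8.56 to 11.4 FPKM). The part of cell composition in these differences was not tested.

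**Figure D5:**
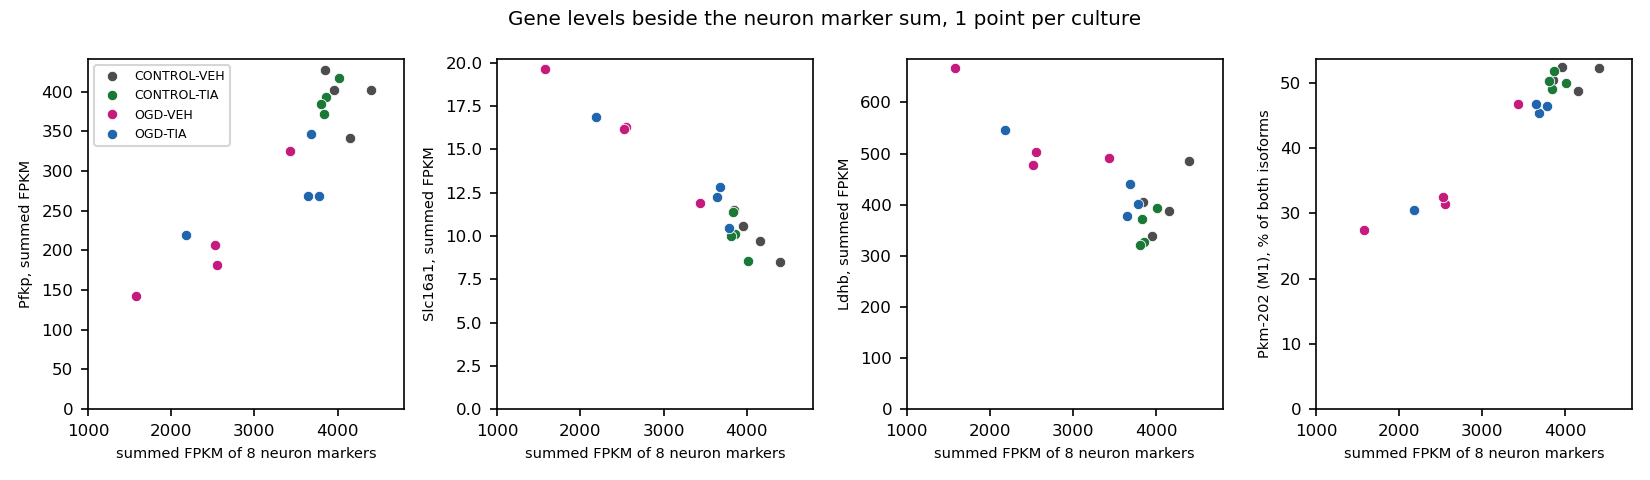
Summed FPKM of *Pfkp*, *Slc16a1* and *Ldhb* and the percentage of Pkm-202 (M1) in the sum of Pkm-202 and Pkm-201 (vertical axes, from 0) against the summed FPKM of 8 neuron markers (horizontal axis, not from 0), 1 point per culture, coloured by group. Only the marker sum has its isoforms weighted by length. The cultures with the lowest marker sums, OGD-VEH 10 to 12 and OGD-TIA 16, have the lowest M1 shares (27.4 to 32.4%) and the highest *Slc16a1* levels (16.2 to 19.7 FPKM).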

How the data were processed

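The authors deposited 1 table of FPKM values per isoform for all 16 cultures. According to the methods and labels, 50-base single-end stranded mRNA reads were mapped with STAR to GRCm38 and isoforms were estimated with eXpress, and the table's name states TMM scaling between libraries; tool versions were not given in the sources used here. Isoform estimates divide shared reads by a model, so short isoforms can carry large and unstable FPKM. FPKM of isoforms were summed per symbol. As FPKM are not counts, DESeq2, which the authors used, was not run. Instead, limma 3.58.1 (R 4.3.3; variance trend, empirical Bayes) was fitted to log2(FPKM + 0.1) for genes averaging 0.5 FPKM or more in the cultures compared, with Benjamini-Hochberg adjustment over all genes tested. A change passed at an adjusted p of 0.05, and the study's 2-fold limit (log2 of at least 1 in size) was applied as well; ± gives the standard error. Depth was estimated from the size of the smallest FPKM steps and covers counting error only. As the values carry the TMM scaling that the table's name states, the estimates include it and are not counts of sequenced reads. The highest estimates lie above the range of aligned reads per sample that the authors report.

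The genes and lists were chosen with earlier results of these data known. All 16 culture values are printed for genes that passed in any of the 6 fits and for *Hif1a*; *Adm* and *Pgam1* were added after their values were seen. The labels tie no culture to a preparation or litter, so p-values measure the spread between cultures. Shares of related genes and isoforms were compared by exact permutation. Promoter windows are from RefSeq (GRCm38.p6), and exon sequences from GENCODE M21 transcripts (GRCm38). In simulated data for OGD-VEH against CONTROL-VEH (15805 to 15836 genes), 79.4 to 88.3% of 4-fold and 91.6 to 94.6% of 8-fold changes were recovered with at most 6 false calls. Recovery at the spread of the OGD-VEH cultures was not tested. In the measured values of this comparison, *Slc2a1* changed 4.23-fold and did not pass (adjusted p = 0.0518, limma). Alternatives were other pseudocounts, filters, scaling, isoform weights, culture weights and fits, and leaving out each culture.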

Additional observations from a re-analysis of the deposited data

Results flagged for a closer look

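In 13 of 172 sets of 4 cultures (43 genes in 4 groups), 1 culture stood apart from the other 3 by more than Dixon's 95% limit for 4 values, which chance alone gives in about 1 of 20 sets; all values are FPKM. CONTROL-VEH 4 was high for *Pfkm* (188.9, others 117.2 to 127.4), *Aldoc* (838.2, others 273.7 to 299.3), *Epas1* (9.762, others 4.368 to 5.158) and *Arnt* (47.44, others 14.99 to 16.42). OGD-TIA 16 was high for *Aldoc* (713.4, others 268.2 to 324.6), *Epas1* (8.87, others 4.264 to 5.001) and *Car9* (0.287, others up to 0.039). OGD-VEH 12 was high for *Ldhb* (667.6, others 477.7 to 502.2). OGD-VEH 9 was high for *Gapdh* (211.0, others 183.3 to 187.8). OGD-VEH 10 was high for *Adm* (2.326, others 1.377 to 1.512). CONTROL-TIA 7 was high for *Epas1* (5.52, others 4.614 to 4.685). CONTROL-TIA 5 was high for *Slc2a1* (42.05, others 6.469 to 9.757), and OGD-TIA 14 for *Slc16a3* (0.677, others 0.161 to 0.222), where weighting the isoforms by length gave 0.2399 against 0.1828 to 0.2503.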

How the results depend on the processing

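In OGD-VEH against CONTROL-VEH, 0 genes of the set passed with a 2-fold change. The number was 1 with a minimum mean of 2 FPKM (*Slc2a1*), 1 with median-ratio scaling (*Pfkp*), 2 with isoforms weighted by length (*Pfkp* and *Slc2a1*), 1 with all 16 cultures in one fit (*Slc2a1*), 6 with array quality weights and 0 to 5 when 1 culture was left out. The shares of all genes were 4.87%, 3.94%, 6.57%, 8.64%, 11.8% and 0.0061 to 13.4%. Without the fold limit 1 passed, against 0 without a filter, 4 with a minimum mean of 2 FPKM, 3 with protein-coding isoforms, 8 with weighting by length, 10 in one fit, 19 with array weights and 0 to 11 when 1 culture was left out; the share of all genes that passed was 8.44%, and then 0.144%, 12.3%, 10.6%, 24.8%, 28.3%, 38.8% and 0.0061 to 30.5%. In OGD-TIA against OGD-VEH, array weights gave 2 of 41 (*Adm* and *Hk2*, 4.88%) instead of 0, and 408 (2.5%) of all genes. Over all OGD against all CONTROL cultures, 2 passed with a 2-fold change (4.78% of all genes). Only 1 did with a pseudocount of 1, without a filter, with a minimum mean of 2 FPKM, with weighting by length or with protein-coding isoforms. The shares of all genes were then 2.42%, 2.38%, 4.15%, 3.53% and 4.11%. Array weights gave 3 (*Arnt*, *Slc16a3* and *Slc2a1*), and 3.4% of all genes. Leaving out 1 culture gave 1 to 2, and 3.23 to 6.49% of all genes. Without the fold limit 13 passed (32.1% of all genes), against 9 without a filter (12.9%), 15 with median-ratio scaling (31%), 16 with array weights (30.9%), 18 with weighting by length (45.2%) and 9 to 18 when 1 culture was left out (18 without OGD-VEH 9, 37.3%). *Bnip3*, *Ldhb*, *Pfkl*, *Pfkm*, *Pfkp*, *Pkm*, *Slc16a1* and, where it was tested, *Slc16a3* passed there under every alternative. The means of *Slc16a3* in both OGD groups were below the main filter, which it cleared through the controls. *Hif1a*, which passed nowhere, changed sign with TIA for protein-coding isoforms (0.03 on the log2 scale) and over all cultures with median-ratio scaling (-0.04), and ranged from -0.02 to 0.06 when 1 culture was left out. Median-ratio scaling moved the split of all passing genes in OGD-VEH against CONTROL-VEH from 816 higher and 564 lower to 636 and 661. The cause of these changes was not tested. No paired analysis was possible because each culture number from 1 to 16 is used once. With 4 cultures per group and 1 read worth up to 0.0534 FPKM per kilobase, differences in *Car9*, *Adm* and *Slc16a3* are limited by depth.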
